A study of Mus musculus with 4 samples.

Results

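The translation initiation and elongation factors are the proteins that load ribosomes onto messenger RNA and carry them along it. They were taken here as every gene whose name begins with Eif followed by a digit from 1 to 6, or with Eef followed by 1 or 2, and which was above 0 in at least 1 library. Of 65 matching names, Eif3j1 and Eif3j2 were listed at 0 in all 4 libraries and were left out, so 63 genes remained of 18959 named genes above 0. The pattern uses names only, and so it also takes in regulators of the factors: the eIF4E-binding proteins, the 4 kinases of eIF2alpha, the eEF2 kinase Eef2k and the eEF2 methyltransferase Eef2kmt. It further takes in Eef1e1, whose product sits in the multi-aminoacyl-tRNA synthetase complex, and Eif2c3, an older symbol of an Argonaute gene.

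The libraries were made from RNA of whole tibialis anterior, a fast-twitch muscle at the front of the shin, of C57BL/6 mice at postnatal day 21. The 2 Nf1-KO libraries carried the genotype Nf1flox/flox/Myf5+ and the 2 Het libraries Nf1flox/+/Myf5+, so both groups carry Myf5+ and a floxed Nf1 allele, and neither is a wild type. Nf1 encodes neurofibromin, a GTPase-activating protein that switches off Ras. The comparison addresses what Nf1 in the muscle lineage is needed for while young muscle grows. The labels do not spell out what Myf5+ stands for. Floxed alleles need a Cre recombinase, and a Cre driven by Myf5 acts in muscle precursors and some other lineages, so other cells of the muscle would keep Nf1. The labels do not give the sex of the animals, whether a library was pooled, or whether the libraries of a group came from separate animals, so p-values here measure only the spread between these libraries, which may be technical.

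Nf1 was 1.09 and 1.01 RPKM (reads scaled to gene length and library depth) in Het and 0.89 and 0.85 RPKM in Nf1-KO, a log2 fold change of -0.18 with a limma adjusted p of 0.043. Without scaling between libraries that adjusted p was 0.094, and which exons are floxed is not given in the sources used here. At this level the pseudocount shrinks the change, which was -22% on the linear scale after scaling. The authors' deposited table gives Nf1 a log2 fold change of -0.38 with an adjusted p of 0.0026. The estimated depth was 36500000 to 58100000 reads in Het and 47000000 to 51000000 in Nf1-KO. The tissue label held: fibre genes such as Ckm and Acta1 were abundant in every library. The summed level of 10 fibre markers, as deposited, was 61408 to 61418 RPKM in Het and 50695 to 51245 in Nf1-KO. Of the 10, 3 were called higher and 7 lower, beside 25.3% and 24.9% of all genes tested. Mb (log2 fold change 0.72), Myh1 (0.53) and Des (0.18) were higher. The largest falls were Pvalb (-1.72), Actn3 (-1.345) and Myh4 (-1.08), and Acta1, Tnnt3, Atp2a1 and Ckm were also lower. The median coefficient of variation of the 58 factors tested was 1.36% in Het and 1.27% in Nf1-KO.

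Initiation starts when the cap-binding protein eIF4E, the scaffold eIF4G and the helicase eIF4A assemble on the capped end of a messenger RNA, while eIF2 brings the initiator tRNA to the small ribosomal subunit and eIF3 joins both sides. The eIF4E-binding proteins hold eIF4E back until the kinase mTORC1 phosphorylates them, and eIF2 is held back when stress kinases phosphorylate its alpha subunit. During elongation eEF1A delivers each aminoacyl-tRNA, the eEF1B subunits reload eEF1A with GTP, and eEF2 moves the ribosome on by a codon. Skeletal muscle is known for changing its eEF1A isoform after birth, from the general Eef1a1 to Eef1a2.

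These genes ranged widely in level. In Het, 7 of the 63 had a mean of 100 RPKM or more, 37 lay between 10 and 100, 11 between 1 and 10, and 8 below 1. Eef1a2 (643 RPKM), Eif1 (450 RPKM), Eef2 (399 RPKM), Eef1g (201.3 RPKM) and Eef1a1 (133 RPKM) were the 5 highest. RPKM divides by gene length, so these levels can be set beside each other. Sums and shares of RPKM, here and below, are of values as deposited, without scaling between libraries. The summed RPKM of the 63 genes was 3384 and 3344 in the Het libraries and 3928 and 3926 in the Nf1-KO libraries. That was 0.687% and 0.674% of all RPKM in Het, and 0.777% and 0.774% in Nf1-KO. The groups did not overlap, but with 2 libraries against 2 an exact two-sided permutation test cannot go below p = 0.33, which is the value it gave.

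Abundant genes held much of this difference: Eef1a1, Eef1a2 and Eef2 together summed to 1179 and 1171 RPKM in Het and to 1454 in both Nf1-KO libraries. Changes in both directions stood side by side. Of the 58 factors tested, 19 were higher and 13 lower in Nf1-KO at a limma adjusted p under 0.05, which is 55.2% of them. Over all 10690 genes tested 50.2% were called, 25.3% higher and 24.9% lower. The count of members called is therefore near the background and says little about these genes as a group. Their median log2 fold change was 0.07, beside 0.005 for all genes, and their median absolute log2 fold change was 0.10, beside 0.16. With the pseudocount of 1 RPKM, Eif2s3y and Eef1a1 changed by more than 0.5 on the log2 scale; with a pseudocount of 0.1, which shrinks low genes less, Eif2ak2 also did (-0.56). These values are relative to a trimmed mean of all genes; without scaling between libraries the median of all genes was 0.07, and 33 factors were higher and 6 lower, beside 35.2% and 17.6% of all genes (52.8% called in all). Other settings mainly moved the lower count, which was 8 without the first Nf1-KO library and 8 with no filter on low values. After scaling, both Nf1-KO libraries lay above both Het libraries in 29 factors and below in 18, beside 39% and 37.4% of all genes (76.4% in either direction).

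**Figure D1:**
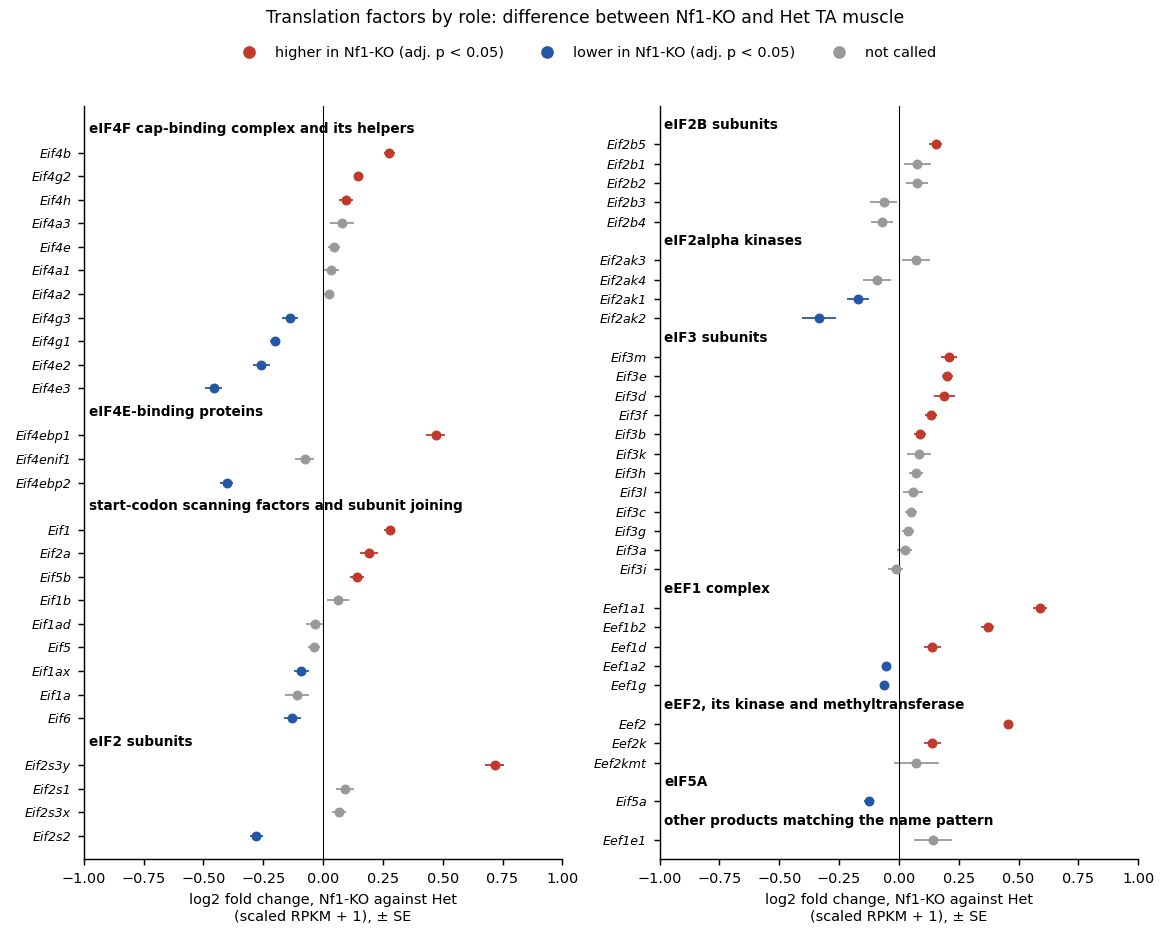
Log2 fold change (scaled RPKM + 1) of Nf1-KO against Het for the 58 factors tested, grouped by role, with the standard error as a bar; red is higher, blue lower and grey not called at a limma adjusted p under 0.05. On this scale the largest rises are Eif2s3y (0.72) and Eef1a1 (0.59), the largest falls Eif4e3 (-0.46) and Eif4ebp2 (-0.40), and the eIF3 subunits lie between -0.01 and 0.21.

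Of 11 tested proteins of the cap-binding complex, 3 were higher and 4 lower. Counts by role, here and below, stand beside 25.3% of all genes called higher and 24.9% lower. The scaffold Eif4g1 and the minor cap-binding proteins fell, while the main cap-binding protein Eif4e and the helicases Eif4a1 and Eif4a2 were not called. Eif4g1, the main scaffold, was 128 and 127 RPKM in Het and 119 and 117 in Nf1-KO. Both Nf1-KO libraries were lower, and the log2 fold change was -0.20 (SE 0.020, limma adjusted p 4.1e-04). Eif4g3, its paralog, fell by less, at -0.14 (limma adjusted p 0.012), and this call was lost with unscaled values (-0.055, adjusted p 0.18). Eif4g2 encodes a scaffold that lacks the eIF4E-binding region and works in cap-independent initiation. It went the other way, from 111 and 110 RPKM to 129 and 131, a log2 fold change of 0.15 (SE 0.020).

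Eif4e3, a member of the eIF4E family that binds the cap in an atypical way, fell most on the log2(RPKM + 1) scale, though the scarcer Eif2ak2 fell more in percent (-34.2% against -28.8%). It was 15.4 and 15.2 RPKM in Het and 11.3 and 11.8 in Nf1-KO, a log2 fold change of -0.46 (SE 0.035, limma adjusted p 1.2e-04). Both Nf1-KO libraries lay below both Het libraries. Eif4e2, a cap-binding protein known for repressing translation, fell from 8.44 and 8.36 RPKM to 7.34 and 7.26, a log2 fold change of -0.26. Eif4e itself was 30.5 and 30.6 RPKM in Het and 33.7 and 33.4 in Nf1-KO, and after scaling its log2 fold change of 0.04 was not called (limma adjusted p 0.20). Unscaled, Eif4e was called higher at 0.13. Eif4e3 thus made up 28.3% and 28% of the RPKM of the eIF4E family in Het and 21.6% and 22.5% in Nf1-KO. Eif4e1b, the egg form, was at 0.01 RPKM in both Het libraries and listed at 0 in both Nf1-KO libraries.

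The helicase subunits of eIF4F were not called: Eif4a1 had a log2 fold change of 0.035 and the more abundant Eif4a2 of 0.02, though both were called higher without scaling, at 0.12 and 0.11. Eif4a3, which works in the exon junction complex, was not called either (0.08). Their helper Eif4b, an RNA-binding protein that stimulates the helicase and is a target of the S6 kinases, rose from 65.02 and 65.22 RPKM to 83.1 and 85.2. Its log2 fold change was 0.28 (SE 0.023, limma adjusted p 1.7e-04). Eif4h, a smaller helper related to Eif4b, rose by only 0.10, and its call was lost with median-of-ratios scaling (0.08, adjusted p 0.062) and in several other settings.

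The 2 eIF4E-binding proteins expressed in this muscle moved in opposite directions. Eif4ebp1 (chromosome 8, 27260329 to 27276674, GRCm38) was 29.2 and 27.0 RPKM in Het and 41.4 and 42.1 in Nf1-KO. Its log2 fold change was 0.47 (SE 0.039, limma adjusted p 1.8e-04). Eif4ebp2 (chromosome 10, 61428491 to 61452661) was the more abundant in Het, at 57.9 RPKM in both libraries, and 47.3 and 45.4 RPKM in Nf1-KO. Its log2 fold change was -0.40 (SE 0.028, limma adjusted p 8.3e-05). Eif4ebp1 thus made up 33.5% and 31.8% of the RPKM of these genes in Het and 46.7% and 48.1% in Nf1-KO. Their sum as deposited was 87.1 and 85.0 RPKM in Het and 88.7 and 87.5 in Nf1-KO. Per RPKM of Eif4e, all eIF4E-binding proteins together came to 2.86 and 2.78 in Het and 2.63 and 2.62 in Nf1-KO. The exact permutation p of each of these ratios was 0.33, the smallest the design allows. Eif4ebp3 was at 0.02 to 0.07 RPKM and was not tested. Eif4enif1, which carries eIF4E into the nucleus, was not called (-0.08, and 0.002 without scaling).

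**Figure D2:**
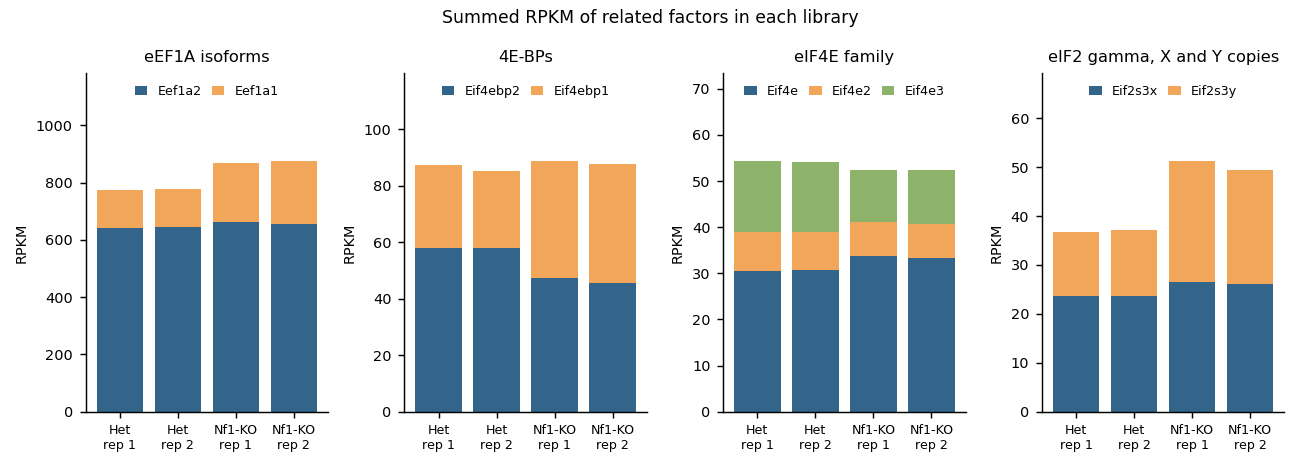
RPKM as deposited of related factors, stacked for each of the 4 libraries, with 1 bar per library and the axis from 0. In Nf1-KO the Eif4ebp1 part grows as the Eif4ebp2 part shrinks, the Eef1a1 part grows on an Eef1a2 part of 643 to 662 RPKM, and the Eif2s3y part grows beside Eif2s3x.

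Of the 4 genes for subunits of eIF2, the carrier of the initiator tRNA, 1 was higher and 1 lower. The alpha subunit Eif2s1, the site of stress phosphorylation, was not called (log2 fold change 0.09, limma adjusted p 0.085), but was called higher without scaling (0.17, adjusted p 0.0093). The beta subunit Eif2s2 fell from 28.6 and 28.9 RPKM to 24.9 and 25.1, a log2 fold change of -0.28 (SE 0.027, limma adjusted p 3.2e-04). The gamma subunit has an X-linked and a Y-linked gene. Eif2s3x was 23.6 RPKM in both Het libraries and 26.6 and 26.0 in Nf1-KO, and after scaling it was not called (0.07, limma adjusted p 0.092; called at 0.15 without scaling).

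Eif2s3y (chromosome Y, 1010543 to 1028847) had the largest change of the 58 factors tested. It was 13.1 and 13.7 RPKM in Het and 24.7 and 23.5 in Nf1-KO, a log2 fold change of 0.72 (SE 0.039, limma adjusted p 3.0e-05). As a share of the summed RPKM of both gamma genes it was 35.7% and 36.7% in Het and 48.1% and 47.4% in Nf1-KO. Among 5 Y-linked genes in all, Uty was 1.44 and 1.58 RPKM in Het and 1.85 and 1.98 in Nf1-KO, Kdm5d 0.22 and 0.18 against 0.29 and 0.30, and Ddx3y and Usp9y were listed at 0 in every library. Without Eif2s3y the summed level of these genes was 1.66 and 1.76 RPKM in Het and 2.14 and 2.28 in Nf1-KO, and Uty was not called (0.16, limma adjusted p 0.066). The labels do not give the sex of the animals, so the share of male tissue and the genotype cannot be told apart for Eif2s3y. The X and Y copies are close in sequence, and how reads matching both were counted is not given in the sources used here. Without Eif2s3y, 18 of 57 factors were higher and 13 lower.

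eIF2B is the exchange factor that reloads eIF2 with GTP, and its 5 subunits had a median log2 fold change of 0.075 (0.158 without scaling). With scaling 1 of them, the catalytic Eif2b5, was called, rising from 19.9 RPKM in both Het libraries to 23.9 and 23.5 (log2 fold change 0.15). Those of Eif2b1, Eif2b2, Eif2b3 and Eif2b4 lay between -0.07 and 0.08, and without scaling Eif2b2 was called as well (0.16). Of the eIF2alpha kinases, Eif2ak2, which responds to double-stranded RNA, fell from 1.38 and 1.54 RPKM to 0.93 and 1.11, a log2 fold change of -0.33 (SE 0.070, limma adjusted p 0.0087), and lost its call with no filter on low values. At this level the pseudocount of 1 shrinks the change, which was -34.2% on the linear scale. Eif2ak1, the heme-regulated kinase, had a log2 fold change of -0.17 (limma adjusted p 0.02). It was 11.6 RPKM in both Het libraries but 10.5 and 11.3 in Nf1-KO, so 1 Nf1-KO library nearly reached Het, and the call was lost with unscaled values (-0.09, adjusted p 0.14). Eif2ak3, the kinase of endoplasmic reticulum stress, and Eif2ak4, the kinase of amino acid shortage, were below 1 RPKM and were not called (0.07 and -0.09).

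The subunits of eIF3, the large scaffold that holds the small ribosomal subunit and eIF4G together, had a median log2 fold change of 0.077 (0.163 without scaling). Of 12 tested, 5 were higher (41.7%) and 0 lower by limma at an adjusted p under 0.05, beside 25.3% and 24.9% of all genes. Without scaling 11 were higher and 0 lower, beside 35.2% and 17.6% of all genes, whose median was then 0.07. The authors' deposited table called 3 higher and 0 lower, beside 15% and 16.6% of its gene names. At an unadjusted p under 0.05 the counts were likewise 5 higher and 0 lower. The share of all genes at that looser threshold was not counted, but is at least the 50.2% called after adjustment. All these counts read the same libraries, so they do not add to each other. The log2 fold changes of the 7 others lay between -0.01 for Eif3i (0.07 without scaling) and 0.08 for Eif3k. Eif3m rose from 37.5 and 36.0 RPKM to 44.5 and 46.2, a log2 fold change of 0.21. Eif3e rose from 46.6 and 46.2 RPKM to 57.2 and 56.5 (0.20). Eif3d rose from 7.99 and 8.11 RPKM to 10.2 and 9.57 (0.19), a call lost with no filter on low values, without the first Het library and without the first Nf1-KO library. Eif3f, the most abundant subunit, was 79.4 and 80.5 RPKM in Het and 94.6 and 92.1 in Nf1-KO (0.13). Eif3b, a core subunit, was called at 0.09, but this was lost when any library was left out. As deposited, without scaling, the 12 subunits together summed to 428 to 430 RPKM in Het and 489 to 491 in Nf1-KO.

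Of the 9 tested factors of start-codon scanning and subunit joining, 3 were higher and 2 lower. Eif1, which keeps the scanning ribosome open until the start codon is reached, changed most. It was 460 and 440 RPKM in Het and 582 and 579 in Nf1-KO, a log2 fold change of 0.28 (SE 0.023, limma adjusted p 1.7e-04). Its paralog Eif1b, at 21.1 to 25.0 RPKM, was not called (0.06). Eif1ax, its partner on the small subunit, was 45.9 and 48.1 RPKM in Het and 47.1 and 46.5 in Nf1-KO, which overlap as deposited; its call at -0.09 (limma adjusted p 0.047) was lost in most settings. Eif1a, a second gene for this partner, was 2.80 to 2.97 RPKM and was not called (-0.11). Eif5, the GTPase activator of eIF2, was not called (-0.04, and 0.05 without scaling). Eif5b, which joins the large ribosomal subunit, rose from 16.3 and 16.4 RPKM to 19.2 and 19.3 (0.14). Eif6, which keeps the large subunit apart, fell by 0.13 with scaling, and lost its call without it (-0.045, adjusted p 0.30). Eif2a, an initiator tRNA carrier outside the eIF2 complex, rose from 6.52 and 6.42 RPKM to 7.92 and 8.09 (0.19). Eif2d was at 0.01 to 0.07 RPKM and was not tested.

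The elongation factors held the largest changes in abundant genes. Eef1a1 (chromosome 9, 78478449 to 78489151) was 133 RPKM in both Het libraries and 207 and 219 in Nf1-KO. Its log2 fold change was 0.59 (SE 0.029, limma adjusted p 1.8e-05), a rise of 51.3% after scaling. Eef1a2 (chromosome 2, 181147653 to 181157014), the muscle and nerve isoform, was 643 and 644 RPKM in Het and 662 and 656 in Nf1-KO. Its log2 fold change was -0.05 with scaling (limma adjusted p 0.029) and 0.035 without (adjusted p 0.10), and the scaled call was lost whichever library was left out. Eef1a2 therefore stayed the main isoform in every library, but its share of eEF1A RPKM was 82.9% in both Het libraries and 76.1% and 74.9% in Nf1-KO. That is 82.9% ± 0.030 (SD, n = 2) against 75.5% ± 0.847 (SD, n = 2), with an exact two-sided permutation p of 0.33, the smallest the design allows. Eef1a1 has many processed pseudogenes, and how reads matching several places were counted is not given in the sources used here. Exons of 25 of the 62 factors found in GENCODE M21 overlap another gene (for Eef1b2, Ndufs1), and whether counting used strand is not stated.

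Eef2 (chromosome 10, 81176631 to 81182498), the translocation factor, rose by more RPKM than any other factor. It was 403 and 394 RPKM in Het and 586 and 579 in Nf1-KO, a log2 fold change of 0.46 (SE 0.018, limma adjusted p 8.7e-06). The replicates of each group were close beside the gap between the groups. Eef2k, the kinase that switches eEF2 off, rose from 9.53 and 9.15 RPKM to 11.1 and 11.0 (0.14), and lost its call when the second Het library or either Nf1-KO library was left out. Summed eEF1A per eEF2 went from 1.92 and 1.97 in Het to 1.48 and 1.51 in Nf1-KO. Eef2kmt, at 0.44 to 0.74 RPKM, overlapped between the groups.

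The subunits of eEF1B, which reload eEF1A, did not all follow. Eef1b2, a catalytic subunit, rose from 40.6 and 39.1 RPKM to 54.8 and 55.5, a log2 fold change of 0.37 (SE 0.027). Eef1d, the other catalytic subunit, rose by 0.14, and its call was lost when either Het library or the second Nf1-KO library was left out. Eef1g, the structural subunit and the most abundant of them, was 204 and 199 RPKM in Het and 206 and 205 in Nf1-KO. It was called lower by a narrow margin with scaling (-0.06, limma adjusted p 0.048) and was not called without it (0.03). Eif5a, which helps ribosomes past stretches such as polyproline and carries the hypusine residue, was 99.95 and 99.4 RPKM in Het and 97.6 and 96.7 in Nf1-KO. It was called lower at -0.125 with scaling and not without (-0.04, adjusted p 0.17). Its paralog Eif5a2, at 0.21 to 0.36 RPKM, was not tested. Eef1e1 was not called (0.14), and Eif2c3, at 0.01 RPKM in 1 Het library and listed at 0 in the others, was not tested.

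**Figure D3:**
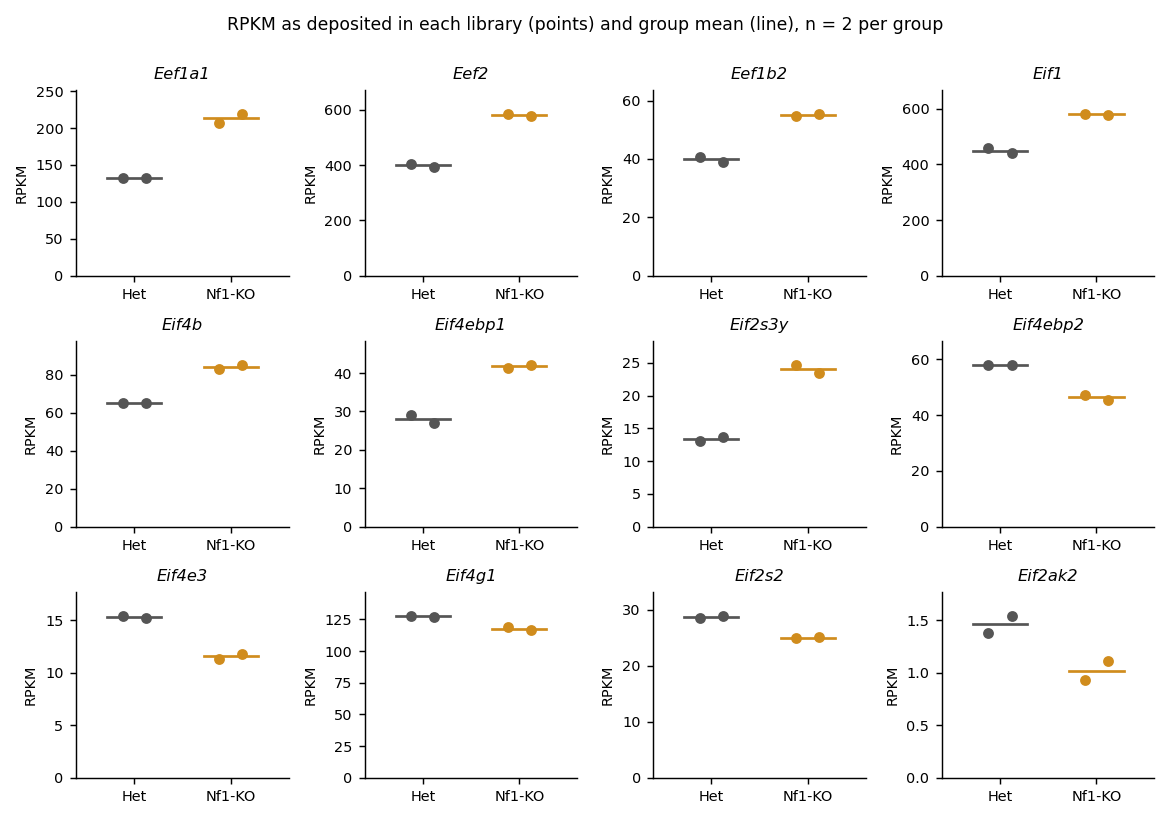
RPKM as deposited in each library (points) and group mean (line) for 12 factors with large or well-separated changes, 2 libraries per group, each axis from 0. The Het and Nf1-KO libraries do not overlap in any of the 12 genes, which follows from how they were picked. After scaling, the groups did not overlap in 76.4% of all genes tested. Eef2 goes from 394 to 403 up to 579 to 586, and Eif4ebp2 from 57.9 down to 45.4 to 47.3.

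Many messenger RNAs of translation factors and ribosomal proteins are known to begin with a C followed by a run of pyrimidines (the 5′ terminal oligopyrimidine tract), through which mTORC1 and the RNA-binding protein LARP1 control their translation and stability. Promoter windows were therefore read for some of the members. Printed here are the eEF1A isoforms that separated, the large rises Eef2, Eef1b2 and Eif4b, and the X and Y copies of eIF2 gamma. Windows of Eif4ebp2 and Eif4g1, which fell, are printed as well. Those of Eif1, which rose, and of Eif2s2 and Eif2ak2, which fell, were read but are not printed. Each window is 100 bases, 70 before and 30 from the annotated start on, from RefSeq on GRCm38.p6, in the direction of transcription. Capitals mark runs of at least 6 pyrimidines that open with C and reach into the last 10 bases before the start or lie after it.
Eef1a1, chr9:78481695-78481794, minus strand: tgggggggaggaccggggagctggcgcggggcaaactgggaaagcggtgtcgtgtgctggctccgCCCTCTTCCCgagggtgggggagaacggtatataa
Eef1a2, chr2:181156986-181157085, minus strand: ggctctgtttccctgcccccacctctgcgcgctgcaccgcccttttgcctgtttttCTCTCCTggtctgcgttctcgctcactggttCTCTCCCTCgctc
Eef2, chr10:81176561-81176660, plus strand: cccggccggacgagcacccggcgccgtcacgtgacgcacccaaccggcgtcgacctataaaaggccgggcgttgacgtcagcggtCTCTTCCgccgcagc
Eef1b2, chr1:63176761-63176860, plus strand: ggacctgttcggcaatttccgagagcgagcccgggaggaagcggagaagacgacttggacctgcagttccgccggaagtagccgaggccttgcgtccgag
Eif4b, chr15:102073703-102073802, plus strand: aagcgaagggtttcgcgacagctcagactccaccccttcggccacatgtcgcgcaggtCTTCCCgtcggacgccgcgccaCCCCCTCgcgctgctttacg
Eif2s3x, chrX:94212622-94212721, minus strand: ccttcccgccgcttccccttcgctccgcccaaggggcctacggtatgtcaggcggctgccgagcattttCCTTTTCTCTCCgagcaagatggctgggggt
Eif2s3y, chrY:1010525-1010624, plus strand: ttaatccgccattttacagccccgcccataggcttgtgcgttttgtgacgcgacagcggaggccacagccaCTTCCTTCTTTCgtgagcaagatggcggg
Eif4ebp2, chr10:61452640-61452739, minus strand: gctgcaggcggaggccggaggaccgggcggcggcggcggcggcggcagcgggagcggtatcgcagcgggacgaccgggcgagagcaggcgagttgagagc
Eif4g1, chr16:20672657-20672756, plus strand: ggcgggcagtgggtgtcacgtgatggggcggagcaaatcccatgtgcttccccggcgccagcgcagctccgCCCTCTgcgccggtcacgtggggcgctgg
The tract opened 1 base after the annotated start base in Eif2s3y and Eif4g1, and 1 base before it in Eif2s3x. In Eef1a1 the annotated start lies before a tatataa sequence, so this entry need not be the start used in muscle. No such tract lay in the windows of Eef1b2 and Eif4ebp2, nor in the windows of Eif1, Eif2s2 and Eif2ak2 that are not printed. Eif1 had a tract only in the longer region counted below.

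Promoters were found for 49 of the 63 factors. In the region from 10 bases before to 50 bases after the start, on the sense strand, 24 of the 49 (49%) had such a tract, beside 42.9% of the 27025 genes in the table. It was present in 9 of 15 factors called higher, 3 of 10 called lower and 12 of 22 not called. The share over all factors was near that of all genes, and annotated starts are not exact enough to place the tract to the base. Over the whole 300 bases and on both strands, CACGTG (the E-box bound by Myc and related factors) was found in 12 of the 49 (24.5%), beside 8.09% of all genes. It was present in 4 of 15 called higher, 2 of 10 called lower and 5 of 22 not called. CCGGAAGT, a core of Ets-factor sites, was found in 9 of 49 (18.4%, beside 4.31% of all genes), and TATAAA in 5 of 49 (10.2%, beside 15.7%). CCGGAAGT was in 2 of 15 called higher, 3 of 10 called lower and 3 of 22 not called. TATAAA was in 4 of 15, 0 of 10 and 1 of 22. These counts are small, and no split by call was tested. TGACGTCA, the cyclic AMP response element, was in the Eef2 window only among the factors (2.04%, beside 2.03% of all genes). The shares of all genes cover every gene with a promoter listed, expressed in muscle or not, while most factors were expressed. The 2 sets are therefore not matched. These letters are a description of the windows. They do not show binding.

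**Figure D4:**
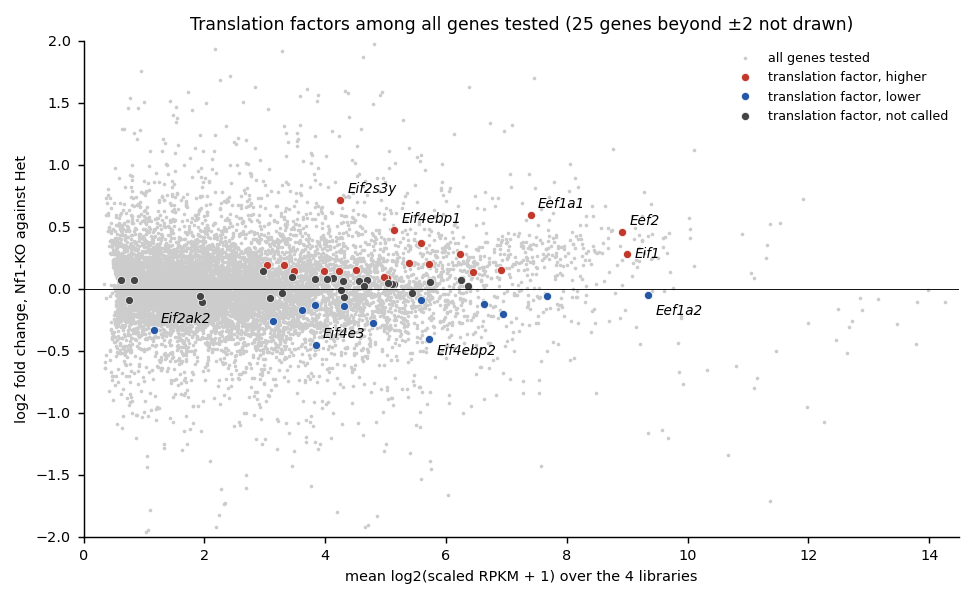
Log2 fold change of Nf1-KO against Het (vertical) plotted against mean log2(scaled RPKM + 1) over the 4 libraries (horizontal) for 10690 genes tested (grey) and the 58 factors (coloured by call). Eef1a1, Eef2, Eif1 and Eef1a2 lie at the abundant end, most factors lie between -0.5 and 0.5, and 25 genes beyond 2 in either direction are not drawn.

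Genes that act on these factors were read from lists. Among 21 kinases and regulators of mTORC1 and MAPK signalling, 4 rose and 6 fell, and the list's median was -0.057 on the log2 scale. The share called was 47.6%, near the 50.2% of all genes tested, so the count says little about the list. Ddit4, an inhibitor of mTORC1 that responds to stress and glucocorticoids, rose from 21.8 and 20.4 RPKM to 41.5 and 43.6 (0.90, limma adjusted p 1.4e-05). Sesn1, a leucine-responsive inhibitor of mTORC1, rose from 5.27 and 5.10 RPKM to 10.01 and 10 (0.75). Sesn3 rose by 0.24 on the log2 scale, while Ddit4l, a relative of Ddit4 rich in muscle, fell by 0.37. Of the kinases that phosphorylate eIF4B and other factors, Rps6kb1 fell by 0.29 and Rps6ka3 by 0.34. Of the kinases that phosphorylate eIF4E, chosen after their values were seen, Mknk2 rose by 0.15 and Mknk1 fell by 0.12, a call lost without scaling. The authors' deposited table gives Rps6ka3 a mean count of only 7.24, so its value is uncertain. Mtor itself was not called by limma (-0.10, adjusted p 0.09), while the authors' deposited table calls it lower (-0.13, adjusted p 0.047).

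Among the 16 tested partners of eIF4F at the cap and the poly(A) tail, 2 were higher and 5 lower (median -0.065). In this list 43.8% were called, beside 50.2% of all genes tested. Larp1, the protein that binds oligopyrimidine tracts, fell from 29.2 and 29.6 RPKM to 21.2 and 21.0, a log2 fold change of -0.55 (SE 0.028, limma adjusted p 2.2e-05). Larp4b and the helicase Ddx3x fell by 0.365 and 0.31 on the log2 scale. Paip2b, an inhibitor of poly(A)-binding protein, rose by 0.32 and Gigyf1 by 0.25. The main poly(A)-binding protein Pabpc1 was 22.8 and 22.4 RPKM in Het and 22.9 and 22.3 in Nf1-KO and was not called.

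Downstream of eIF2, 4 of 14 tested genes of the integrated stress response were higher and 5 lower (median -0.014), so the list had no common direction. Here 64.3% were called, beside 50.2% of all genes tested. The transcription factor Atf4 rose from 57.1 and 56.5 RPKM to 74.9 and 72.7 (0.28), and Gadd45a rose by 0.67. Psat1, at 0.19 to 0.66 RPKM, rose by 0.36 on the log2(RPKM + 1) scale, which understates so low a gene: after scaling its linear rise was 140.3%, beside 68.4% for Gadd45a. Chac1, a glutathione-degrading enzyme and known ATF4 target, fell from 56.6 and 52.3 RPKM to 33.7 and 34.4 (-0.75, limma adjusted p 2.8e-05). Dnajc3, an inhibitor of eIF2alpha kinases, fell by 0.29, as did Cebpg.

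Of 12 release, recycling and rescue factors tested, 1 was higher and 3 lower. In this list 33.3% were called, and 10% in the mitochondrial list below, beside 50.2% of all genes tested. The release factor Gspt1 fell by 0.25, the recycling factor Abce1 by 0.20 and Hbs1l by 0.16, while Abcf1, which binds eIF2 and ribosomes, rose by 0.225. Of 10 mitochondrial translation factors only Tufm, the mitochondrial counterpart of eEF1A, was called, rising from 65.9 and 67.0 RPKM to 81.8 and 81.3 (0.20). Of 7 tested enzymes that make hypusine on eIF5A or diphthamide on eEF2, 0 were called by limma, and the authors' deposited table also called 0. At an unadjusted p under 0.05, 2 were lower: Dohh, the hydroxylase that completes hypusine, and Dph5, a diphthamide methyltransferase. At least 50.2% of all genes tested pass that looser threshold.

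**Figure D5:**
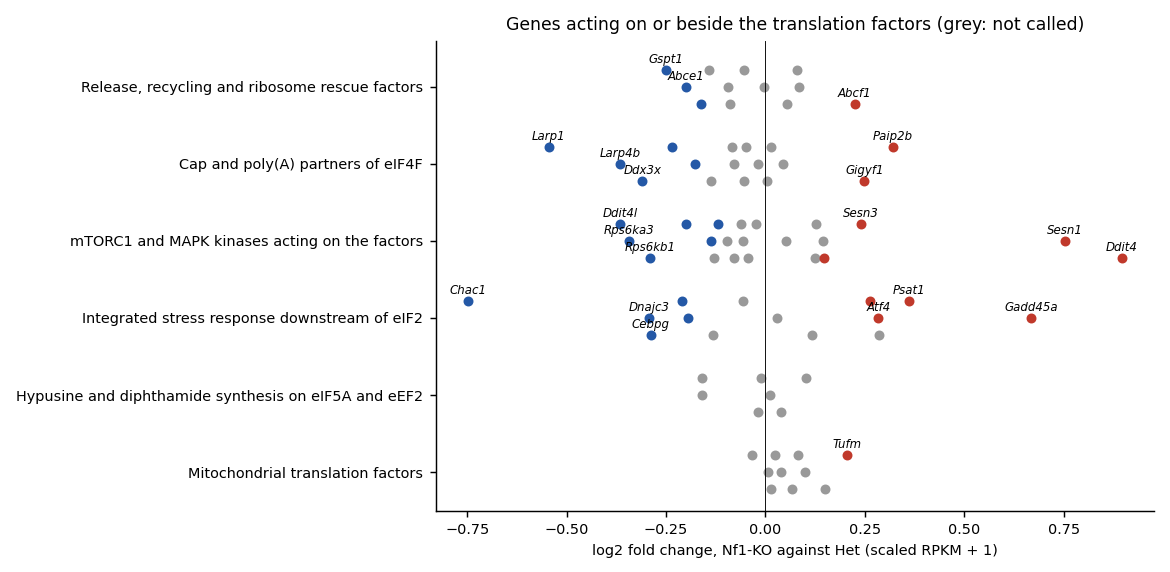
Log2 fold change of Nf1-KO against Het (horizontal) for the tested genes of 6 lists that act on or beside the translation factors (rows; the vertical spread within a row only separates points), red higher, blue lower, grey not called. Ddit4 (0.90) and Sesn1 (0.75) lie farthest right, Chac1 (-0.75) and Larp1 (-0.55) farthest left.

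Genes of other cell types were higher in Nf1-KO as well, and in whole muscle a change in the number of cells of a type and in RNA per cell cannot be told apart. Marker counts stand beside 25.3% of all genes called higher and 24.9% lower. Of 8 Schwann cell markers the 7 tested were higher, and their summed level was 16.1 to 16.6 RPKM in Het and 35.6 to 37.4 in Nf1-KO. Of 7 fibroblast markers 6 were higher, with sums of 97.2 to 99.7 and 149 to 150 RPKM, and of 4 tested immune markers 3 were higher, over the 11 listed with sums of 10.1 to 10.3 and 29.4 to 29.5 RPKM. Most of the immune sum was Lyz2, at 7.47 and 7.38 RPKM in Het and 24.35 and 24.62 in Nf1-KO. Cd68 and Csf1r were also called higher. Mrc1, at 1.04 and 0.96 RPKM in Het and 0.97 and 1.19 in Nf1-KO, was not called. Of the immune markers Adgre1 and Emr1 were listed at 0. Endothelial markers came to 80.6 to 81.1 and 85.1 to 86.6 RPKM, with 2 higher and 2 lower of 7, satellite cell markers to 14.7 to 15.3 and 17.2 to 17.4 RPKM, with 2 higher of 5 tested, and adipocyte markers to 8.29 to 9.47 and 20 to 20.6 RPKM, with 2 higher of 3 tested. Most of the adipocyte sum was Cfd, at 5.87 and 6.80 RPKM in Het and 17.3 and 17.7 in Nf1-KO; without it the sum was 2.42 and 2.67 RPKM in Het and 2.68 and 2.89 in Nf1-KO. Adipoq was 1.11 and 1.31 RPKM in Het and 0.95 and 1.05 in Nf1-KO and was not called, and Lep, not tested, was 0.21 and 0.22 against 0.03 and 0.05. All 4 tested of 6 brown adipocyte markers were higher, with sums of 485 to 493 and 753 to 813 RPKM that were nearly all Cox8b. Without Cox8b the sum was 6.86 and 7.35 RPKM in Het and 12 and 12.5 in Nf1-KO, as Cidea, Ppargc1a and Zic1 were also called higher. Ucp1, which defines that cell type, and the marker Lhx8 were listed at 0. Of the blood markers only Alas2 was tested, and it was not called; the blood sums were 1.37 to 1.47 and 1.62 to 1.78 RPKM. The globin genes Hba-a2, Hbb-b1 and Hbb-b2 were listed at 0 in every library, so a listed 0 in these files need not mean that a gene is silent. Eef1a1 is the general isoform of such cells, and the part of these cell types in its rise, and in those of Eef2, Eef1b2, Eif1 and Eif4ebp1, was not tested.

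The authors' deposited table lists 60 of the 63 factors and calls 16 higher and 11 lower at its adjusted p under 0.05, beside 15% and 16.6% of its 13984 gene names (31.7% in all). All 27 were also called by limma with the same sign. Both rest on the same 4 libraries, so this is not independent support. Among all genes tested by limma, the authors' table called 1906 higher and 2198 lower. Of these, 4037 were also called by limma with the same sign. The 5 called by limma alone, chosen here because they differ, were Eif3b, Eif3d, Eif4h, Eif1ax and Eif6. The deposited table also gives the mean normalized read count behind each value. It was 71881 for Eef2, 63180 for Eef1a2, 14568 for Eef1a1, 4438 for Eif4ebp2, 1615 for Eif4ebp1, 1611 for Eif4e3, 1553 for Eif2s3y and 257 for Eif2ak2.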

How the data were processed

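Whole tibialis anterior RNA was sequenced from TruSeq v2 libraries, per the labels' protocols. STAR 2.4.2a, DESeq2 and mm9 are named in the submitters' processing notes. The authors deposited 1 RPKM value per gene and library (the unit was read from the values) and a comparison table with normalized mean signal, log2 fold change, its score (fold change over standard error), p-value and adjusted p, per the file headers. Counting, gene lengths and strand are not given in the sources used here.

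Repeated names kept the copy with the highest mean. RPKM was scaled by an unweighted trimmed mean (trims 0.3 and 0.05; factors 0.969 to 1.03), and log2(RPKM + 1) of genes at 0.5 RPKM or more in at least 2 libraries was tested with limma 3.58.1 (R 4.3.3), with a variance trend and Benjamini-Hochberg adjustment over 10690 genes, at 0.05. Fold changes of low genes are understated by the pseudocount. Depth was estimated from the steps between low RPKM values. On simulated data for Nf1-KO against Het (10468 genes), 59.2% of 98 genes changed 1.2-fold, 100% of 97 changed 2-fold and 0.0584% of 10273 unchanged genes were called. The simulation changed few genes, with noise from the spread between these libraries. In the data 50.2% of genes were called, so these rates do not carry over to it. Alternatives changed the pseudocount, filter, scaling, variance trend, threshold, name copies, replicate block and libraries. The members, lists and the rule for genes named in the text (fixed members, the 10 largest called changes, and the 3 largest called changes per list and direction) were chosen with earlier results of these data known. Positions are from GENCODE M21 and promoters from RefSeq, both on GRCm38, not on mm9.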

Additional observations from a re-analysis of the deposited data

How the results depend on the processing

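Of 748 values of single factors under 13 alternative settings, 649 kept their direction and their side of the threshold, 67 lost the call, 21 gained one and 11 changed sign. Of the 32 called factors, 19 were called with the same sign in every setting other than the stricter threshold. Scaling mattered most. On values as deposited, 33 factors were higher and 6 lower, and the median log2 fold change was 0.141. There the release list had 7 calls and the mitochondrial list 3, and the sign turned for Eef1a2 (0.035), Eef1g (0.027), Eif1ad (0.045), Eif2b3 (0.003), Eif2b4 (0.014), Eif3i (0.070), Eif4enif1 (0.002) and Eif5 (0.048). With median-of-ratios scaling the median was 0.050. The lower count was 8 with no filter and 7 at an adjusted p of 0.01. The hypusine and diphthamide list, with 0 calls, had 2 at 1 RPKM or more in every library, 1 with median-of-ratios scaling and 1 with no variance trend. The cause of these shifts was not tested.

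Leaving out each library in turn gave 16 to 17 higher and 8 to 9 lower factors, 0 to 1 calls in the hypusine list, 1 to 2 in the mitochondrial list, and a median of 0.033 to 0.060. The sign turned for Eif2b1 without the first Nf1-KO library (range over the libraries -0.008 to 0.161), for Eif3a without the first Het library (-0.00025) and for Eif3i without the second Nf1-KO library (range -0.031 to 0.00051). A lone library is assumed to vary like the other group.

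With the replicate number as a block, 19 factors were higher, 10 lower, and the hypusine list had 1 call. Same-numbered libraries did not deviate together (r = -0.0179 over 10690 genes). In a group of 2 libraries the deviations mirror each other, so this value does not settle whether the libraries were paired. At the estimated depth, 1 RPKM over 2 kb is 73 to 116 reads, so factors under 1 RPKM are the least precise.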
